A study of Oryza sativa with 21 samples.

Results

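C-13 and C-14 are rice lines in which the same gene, NRP1, was knocked out with CRISPR/Cas9, and their leaf transcriptomes were compared with each other. Each line had 3 RNA-seq libraries, 6 of the 21 in the series. The other 5 lines had 3 libraries each: the wild type (WT), the third edited line C-16, and OE-2, OE-3 and OE-4, which overexpress NRP1. All plants grew in the field, and the second leaf from the top was taken in the morning at early heading. The labels give the same genotype for C-13, C-14 and C-16 and no sequence of the edited alleles. They do not say whether a library came from 1 plant or from several, nor whether the replicates were separate plants, and a p-value here reflects no more than the variation among these particular libraries.

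NRP1 stands for a negative regulator of photosynthesis, the name the series gives it. Cas9 cuts DNA at a site set by a guide RNA, and imperfect repair leaves small insertions or deletions. These can differ between transformed plants. Lines edited at the same gene share the target. They need not share the repair outcome, the other effects of transformation and tissue culture, or later plant-to-plant differences. An edit can abolish a protein and leave the level of its transcript unaltered.

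The 6 libraries held between 15662133 and 18904053 counted reads. Of the 91080 identifiers in the table, 21044 passed the filter on low counts and were tested. Levels are given as CPM, counts per gene scaled to a common library size, and 3 reads in a library of C-13 or C-14 came to between 0.162 and 0.195 CPM. Within lines, the median standard deviation of log2 CPM was 0.154 in C-13 and 0.189 in C-14. On a principal component analysis of the 6 libraries, the first axis held 33.9% of the variance. C-13 lay between -21.09 and -17.98 on it and C-14 between 7.66 and 38.1, with C-14 replicate 2 the farthest out. Leaf genes had high levels: the antenna gene Lhcb1.1 (OS09G0346500) had a mean of 9395 CPM in C-13 and 9176 CPM in C-14. The meristem marker OSH1, the floral marker MADS6 and the root markers RCc3 and Lsi2 had no read in any of the 6 libraries. The summed level of 5 panicle, anther and seed markers was 31.7 to 32.5 CPM in C-13 and 29.6 to 32.9 CPM in C-14. For 3 root markers it was 24.12 to 34.8 and 29.5 to 32.0 CPM, all of it from Lsi1, and for 2 guard cell markers 30.6 to 41.1 and 37.1 to 50.2 CPM. The sum over 4 markers of dividing cells was 8.12 to 9.55 CPM in C-13 and 9.93 to 10.4 CPM in C-14, so that the lines did not overlap. Nearly all of it came from PCNA (OS02G0805200), the only 1 of the 4 that was tested (adjusted p = 0.844, edgeR quasi-likelihood test). PCNA had 9.31, 7.95 and 8.98 CPM in C-13 and 10.2, 9.74 and 10.3 CPM in C-14. Lines lay apart in this way for 13.8% of all tested genes. No tested marker was called, and the part of such cells in the results was not tested. In a bulk sample, fewer cells of a type and less RNA per cell cannot be told apart.

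The edited gene itself was read at a low level in all 3 edited lines. NRP1 (OS07G0471900) had 3.14, 2.38 and 3.87 CPM in the C-13 libraries and 2.27, 2.27 and 2.01 CPM in those of C-14. C-16 had 3.47, 3.01 and 3.42 CPM and WT 2.45, 1.93 and 3.00 CPM. Every C-13 library lay above every C-14 library, but 1 of them by a small margin, and WT overlapped both lines. The log2 fold change, C-13 minus C-14, was 0.51 (SE 0.18, 95% interval 0.14 to 0.89) with an adjusted p of 0.396 (edgeR quasi-likelihood test, Benjamini-Hochberg), which missed the threshold of 0.05. In the overexpression lines the mean was 287.8 to 364.9 CPM, which ties the identifier to the labels. Whether the edits altered the protein cannot be read from these counts.

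Most tested genes gave no detectable difference between C-13 and C-14. At an adjusted p under 0.05 (edgeR quasi-likelihood test), 75 of 21044 genes were called, 0.356% of those tested. Of these, 19 were higher in C-13 (0.0903%) and 56 were lower (0.266%). In 74 of the 75 the 3 libraries of a line lay apart from those of the other line, which held for 13.8% of all tested genes. The calls rest on the same libraries, so this count adds no separate support to them. The median log2 fold change of all genes was -0.004. Leaving out any 1 library of C-13 or C-14, which also leaves fewer libraries in that line, lowered the number of calls to between 36 and 65. The number was 36, 47 and 45 without C-13 replicates 1, 2 and 3 and 48 without C-14 replicate 1. It was 190 with no filter on low counts, 17 among genes with a mean of at least 5 CPM and 173 with the DESeq2 Wald test.

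**Figure D1:**
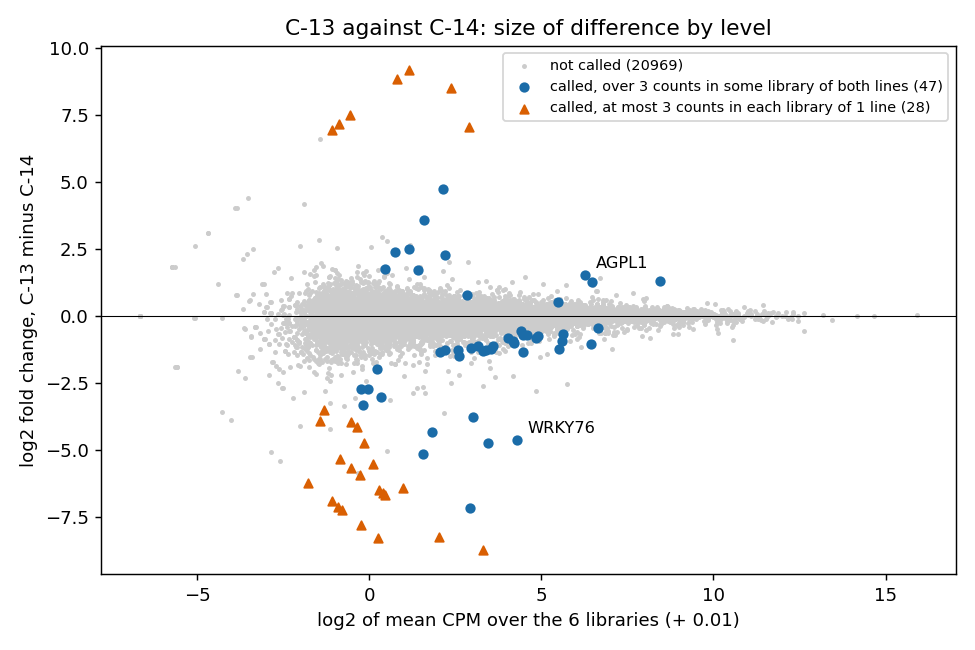
Difference between C-13 and C-14 (y axis, fitted log2 fold change) against level (x axis, log2 of the mean CPM over the 6 libraries plus 0.01) for 21044 tested genes, 1 point each. The 28 called genes with at most 3 counts in every library of 1 line (triangles) include the largest differences and lie at low levels, and 47 other called genes (circles) include AGPL1 and WRKY76.

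Most of the largest differences were those of genes read in 1 line and nearly absent from the other. In 28 of the 75 called genes, each library of 1 line had at most 3 counts. Of these, 21 were nearly absent from C-13 and 7 from C-14. Such genes passed the filter only through lines where they were read, so a difference among the lines was built into their being tested. Their mean level in the line where they were read was 0.560 to 19.9 CPM, with a median of 1.66 CPM, and 12 of them reached 2 CPM. Fitted fold changes of these genes depend on the prior count, and bounds are given in their place.

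OS04G0422300 had the most reads of the kind read in C-14. Its counts were 325, 344 and 285 in C-14 and 0, 1 and 1 in C-13. The 3 C-16 libraries held 269, 311 and 262 reads, and the 3 WT libraries 3, 1 and 2. C-14 and C-16 were thus on 1 side and C-13 and WT on the other. The ratio of C-14 to C-13 was 516, with a 95% interval from counting error alone of 143 to 4270, and the adjusted p was 2.34e-06 (edgeR). All 3 overexpression lines also had over 3 counts in each library, from 11 reads in OE-3 replicate 3 to 389 in OE-4 replicate 1.

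OS08G0466600 was read in C-13 alone among the 7 lines. It had 98, 45 and 83 counts in C-13, 0 in every C-14 library and at most 2 in any library of the other 5 lines. Against a floor of 3 counts per library, it was at least 23.19-fold higher in C-13 than in C-14 (adjusted p = 0.000139, edgeR). OS04G0223600 had 65, 63 and 53 counts in C-13 and 0 in C-14, in C-16, in WT and in OE-2. It was at least 18.6-fold higher in C-13 than in C-14 (adjusted p = 0.00237, edgeR). OE-3 and OE-4 held between 14 and 56 reads of it per library, so that lines with and without reads of it were found among edited and overexpression lines alike.

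EPlOSAG00000051372 had 23, 48 and 42 counts in C-14 and none in C-13, C-16, WT or OE-2. It was at least 13.6-fold higher in C-14 than in C-13 (adjusted p = 0.0127, edgeR). The DESeq2 Wald test gave it an adjusted p of 0.724, and the call ended when any of the C-13 libraries was left out (adjusted p = 0.0583 to 0.0655). The files give no function for this or the other 3 identifiers. Identifiers that begin with EPlOSAG made up 8 of the 75 calls, or 1.93% of the 414 tested, against 67 of 20630 tested identifiers that begin with OS, or 0.325%. Of those 8, 7 were higher in C-14 and 7 were nearly absent from 1 line.

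In WT, most of these genes were nearly absent too. Of the 28, 25 had at most 3 counts in every WT library, 19 of the 21 nearly absent from C-13 and 6 of the 7 nearly absent from C-14. C-16 split them: of the 21, 8 had at most 3 counts in each C-16 library, 10 had over 3 in each, and 3 had libraries of both kinds. Of the 7, C-16 had at most 3 counts in each library for 5 and over 3 in each for 2. Overexpression lines had reads as well, with over 3 counts in every library of at least 1 such line for 16 of the 28. Only 6 of the 28 were read in a single line of the 7, 3 in C-13 and 3 in C-14.

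Without regard to calls, 12 tested genes had over 3 counts in each C-13 library and at most 3 in each C-14 library, and 34 had the reverse. The corresponding counts were 18 and 19 for C-13 against C-16, and 18 and 9 for C-14 against C-16. Set against WT, 42 genes were read in C-13 and nearly absent from WT and 35 the reverse, 53 and 22 for C-14, and 41 and 44 for C-16. These sets share libraries, and no test was made between them.

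**Figure D2:**
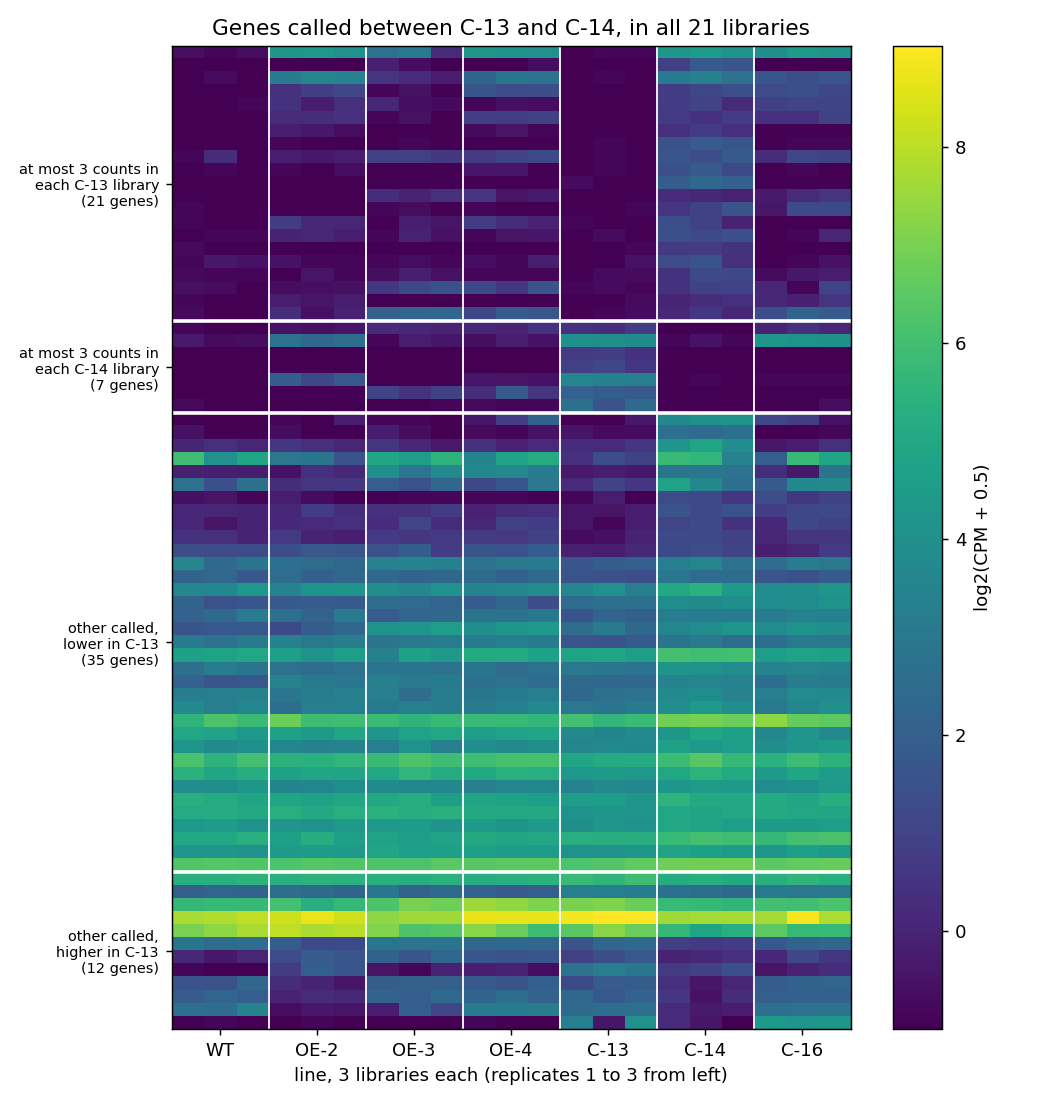
Level of each of the 75 called genes (rows) in all 21 libraries (columns, 3 per line), as log2 of CPM plus 0.5. The upper blocks hold the 21 genes nearly absent from C-13 and the 7 nearly absent from C-14; most are dark in WT as well, and C-16 and the overexpression lines hold reads of some of them.

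Among genes read well in both lines the differences were smaller. At a mean of at least 2 CPM in both, 29 genes were called, 5 higher and 24 lower in C-13. The size of their log2 fold change ran from 0.47 to 1.54, with a median of 1.13, and 17 reached 1. The remaining 18 calls, 7 higher and 11 lower in C-13, were under 2 CPM in 1 line without being nearly absent from it. Some missed that class narrowly. OS02G0172850 had 0, 0 and 5 counts in C-13 and 209, 243 and 270 in C-14. EPlOSAG00000049985 had 4, 2 and 2 counts in C-13 and 99, 81 and 95 in C-14.

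OS01G0960500 had the highest level of these 29, a rank in CPM that is not corrected for length, and was singled out after its values were seen. It had 464.3, 512.5 and 522.4 CPM in C-13 and 194.4, 199.6 and 207.0 CPM in C-14. C-16 was divided, with 202.7, 470.4 and 221.0 CPM, and WT had 213.6, 226.1 and 270.5 CPM. The libraries of C-13 and C-16 replicate 2 stood well above those of C-14 and WT. Overexpression lines were divided too, with 307.6, 424.0 and 312.7 CPM in OE-2 and 411.1, 401.4 and 414.7 CPM in OE-4. OE-3 had 162.0, 192.9 and 195.6 CPM. Its log2 fold change was 1.32 (SE 0.22, adjusted p = 0.00471, edgeR), and the call ended when only the libraries of the edited lines were fitted (adjusted p = 0.0701).

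A single called gene had overlapping lines. OS03G0299700, also chosen after its values were seen, had 9.19, 0.271 and 16.1 CPM in the C-13 libraries. In C-14 it had 0.657, 0.260 and 0 CPM, and in C-16 20.2, 18.1 and 19.1 CPM. C-13 replicate 2 thus resembled C-14 and the WT libraries, of which the highest had 0.0569 CPM. On the log2 scale the other C-13 libraries lay nearer to C-16, though both were below every C-16 library. Its adjusted p was 0.0307 (edgeR).

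WRKY proteins are transcription factors that bind W-box motifs and govern much of the plant response to pathogens, in rice largely downstream of salicylate. WRKY45 is an activator of that response, NH1 is the rice counterpart of the salicylate co-regulator NPR1, and WRKY62 and WRKY76 are known in rice as repressors of defence genes. Of the 16 tested genes in the list of salicylate and WRKY regulators, 1 was called, WRKY76, which was lower in C-13, where 0.266% of all tested genes were called lower. The log2 fold change was below 0 for 15 of the 16, with a median of -0.54, and for 10696 of the 21044 tested genes. The lines did not overlap for 11 of the 16, against 13.8% of all tested genes. Those lists were chosen with results of these data known, so the counts describe the list and carry no test of it.

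WRKY76 (OS09G0417600) had 0.786, 2.16 and 1.47 CPM in C-13 and 54.4, 48.0 and 10.3 CPM in C-14. All C-13 libraries were lower than any C-14 library, and C-14 replicate 3 was lower than the other C-14 libraries. C-16 had 3.53, 55.0 and 30.3 CPM and WT 61.0, 16.3 and 30.0 CPM, so C-16 replicate 1 came nearest to C-13. The log2 fold change was -4.65 (SE 0.89, 95% interval -6.51 to -2.79, adjusted p = 0.0199, edgeR). The call ended when any 1 of the C-13 libraries or C-14 replicate 1 or 2 was left out (adjusted p = 0.0622 to 0.151), and it held without C-14 replicate 3 (adjusted p = 0.00764). It also ended with a mean of at least 5 CPM (adjusted p = 0.0545) and with only the libraries of the edited lines (adjusted p = 0.0856).

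WRKY45 and WRKY62 were described with it after their values were seen, and neither was called. WRKY45 (OS05G0322900) had 14.2, 17.96 and 15.1 CPM in C-13 and 114.9, 97.9 and 60.1 CPM in C-14. WRKY62 (OS09G0417800) had 0.665, 0.541 and 0.763 CPM in C-13 and 9.08, 12.1 and 3.70 CPM in C-14. The C-13 libraries lay close together at the low end in both genes. The log2 fold changes were -2.53 (SE 0.57) for WRKY45 and -3.65 (SE 0.91) for WRKY62, with adjusted p of 0.0644 and 0.107 (edgeR).

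The spread of these genes between libraries differed from line to line. For WRKY45 the highest library was 5.20 times the lowest in WT, 5.91 times in C-16 and 3.38 times in OE-4. It was 1.91 times in C-14, 1.66 times in OE-3, 1.27 times in C-13 and 1.04 times in OE-2. For WRKY76 the ratio was 2.75 in C-13, 5.29 in C-14, 15.6 in C-16 and 3.75 in WT. For WRKY62 it was 1.41 in C-13, 3.26 in C-14, 7.83 in C-16 and 9.07 in WT. C-16 replicate 1 was the lowest C-16 library for WRKY45, WRKY62 and WRKY76, and WT replicate 1 the highest WT library for the same genes. OE-2 was low as well, with 26.3 to 27.3 CPM of WRKY45 and 2.43 to 7.28 CPM of WRKY76. Both WRKY45 and WRKY62 passed the threshold with no filter, with the DESeq2 Wald test and with the libraries of C-13 and C-14 alone. Adjusted p there was 0.000426 to 0.0135 (edgeR or DESeq2). In 11 of 14 settings neither was called. With any 1 of the 6 libraries left out, adjusted p was 0.0647 to 0.272 for WRKY45 and 0.0843 to 0.388 for WRKY62 (edgeR). WRKY62 and WRKY76 are near neighbours by identifier and related in sequence, and it is not stated how reads that match both were counted.

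Other defence genes in the lists were not called. The NH1 levels (OS01G0194300) were 15.4, 16.2 and 13.4 CPM in C-13 and 22.2, 20.4 and 16.7 CPM in C-14 (log2 fold change -0.40, SE 0.16, adjusted p = 0.522, edgeR). None of 10 pathogenesis-related and chitinase genes was called, with a median log2 fold change of 0.10. Their lowest adjusted p was 0.816, for PBZ1 (OS12G0555500), a pathogenesis-related protein of the PR10 family. None of 9 phenylpropanoid and lignin genes (median 0.18), 8 phytoalexin genes (median -0.11), 7 jasmonate synthesis genes (median 0.02) or 9 JAZ and MYC2 genes (median 0.00) was called either.

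**Figure D3:**
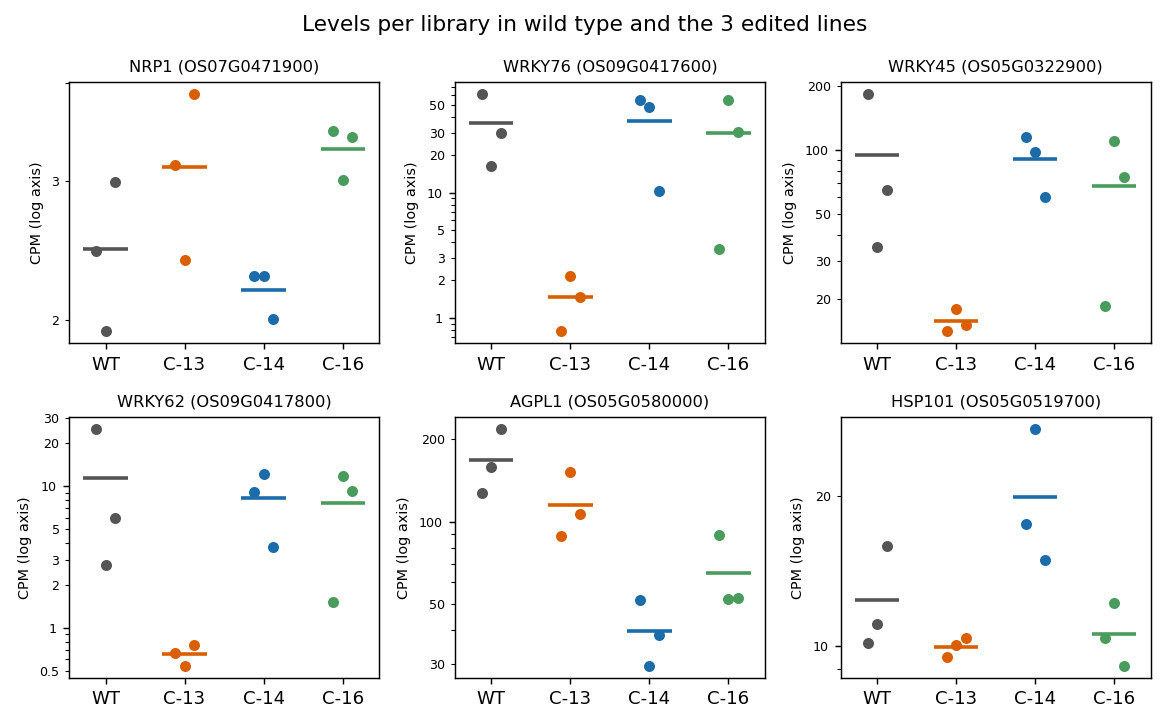
Level per library (y axis, CPM on a log axis) in WT and the edited lines; each point is 1 library, with replicates 1 to 3 from left to right, and each bar is the mean of 3. WRKY76, WRKY45 and WRKY62 are lowest in all 3 C-13 libraries, AGPL1 is lowest in C-14, and the NRP1 axis spans a narrow range from 1.93 to 3.87 CPM.

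In the sucrose and starch list, 1 of 14 tested genes was called, and it was higher in C-13, against 0.0903% of all tested genes. AGPL1 (OS05G0580000) encodes a large subunit of ADP-glucose pyrophosphorylase, the enzyme of the first committed step of starch synthesis. It had 88.3, 151.6 and 106.1 CPM in C-13 and 51.4, 29.5 and 38.4 CPM in C-14. C-16 had 89.3, 51.9 and 52.6 CPM, and WT had 127.6, 159.0 and 218.6 CPM. The lines did not overlap, and each C-14 library was below every library of WT and, by a small margin for 1 of them, of C-16. This made a log2 fold change of 1.54 (SE 0.33, 95% interval 0.85 to 2.22, adjusted p = 0.0453, edgeR). It stood close to the threshold: with any 1 of the 6 libraries left out the adjusted p was 0.0642 to 0.251, and with a mean of at least 5 CPM it was 0.0851.

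The other starch genes differed less. The list's median log2 fold change was 0.15, and 11 of 14 were above 0. AGPL3 (OS03G0735000), another large subunit gene, had 96.4, 103.2 and 105.7 CPM in C-13 and 95.6, 76.9 and 88.1 CPM in C-14, with a log2 fold change of 0.23 (SE 0.12, adjusted p = 0.728, edgeR). SUT1 (OS03G0170900), a sucrose transporter that loads the phloem, lay on the other side, with a log2 fold change of -0.64 (SE 0.24, adjusted p = 0.453, edgeR).

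Heat shock genes encode chaperones that keep proteins folded under heat, together with the heat shock factors that switch them on. All 13 tested members of that list had a log2 fold change below 0, as did 10696 of all 21044 tested genes, and the list's median was -0.41. None was called by edgeR or by DESeq2, and 3 had an unadjusted p under 0.05, against 7.46% of all tested genes. The gene with the smallest adjusted p was HSP101 (OS05G0519700), a chaperone that dissolves protein aggregates. It had 9.49, 10.1 and 10.4 CPM in C-13 and 17.6, 27.3 and 14.9 CPM in C-14. The C-14 libraries were all above those of C-13, whereas C-16 (9.13 to 12.2 CPM) overlapped C-13. WT, with 10.1, 11.1 and 15.9 CPM, overlapped both lines, as did OE-2 with 7.77 to 24.0 CPM. The log2 fold change was -0.995 (SE 0.33, adjusted p = 0.353, edgeR).

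Photosynthesis, which the name of the edited gene refers to, showed no called gene. In the lists of antenna proteins, photosystem subunits, electron carriers with ATP synthase, and the Calvin-Benson cycle, 0 of 44 tested genes were called by edgeR or by DESeq2 and 2 had an unadjusted p under 0.05, which 7.46% of all tested genes had. The median log2 fold change over the 44 was -0.03, but the lists differed. Values were below 0 for 10 of 12 antenna genes (median -0.11) and 12 of 14 photosystem subunits (median -0.11). They were below 0 for 2 of 5 genes of electron carriers with ATP synthase and 5 of 13 Calvin-Benson genes. Of all 21044 tested genes, 10696 were below 0, and the lean was not tested. Over the members, the lowest bound of a 95% interval was -2.22 and the highest 0.83. Lhcb1.2 (OS01G0720500), an antenna gene, had the smallest adjusted p (0.472, edgeR). Its levels were 71.4, 30.1 and 31.2 CPM in C-13 and 70.5, 45.2 and 182.2 CPM in C-14, which overlap, with C-14 replicate 3 apart. RBCS4 (OS12G0292400), a small subunit of Rubisco, had a log2 fold change of 0.25 (SE 0.15, adjusted p = 0.782, edgeR).

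Related functions gave the same count of 0. None of 9 photorespiration, 13 chlorophyll synthesis, 7 chlorophyll breakdown, 10 light signalling or 12 nitrogen assimilation genes was called, and their median log2 fold changes ran from -0.01 to 0.11. PORA (OS04G0678700), which reduces protochlorophyllide in the light, had 21.8, 9.14 and 20.5 CPM in C-13 and 24.2, 42.7 and 38.2 CPM in C-14 (log2 fold change -1.03, SE 0.46, adjusted p = 0.628, edgeR). PIL15 (OS01G0286100), a phytochrome-interacting factor, had 144.2, 130.2 and 159.7 CPM in C-13 and 96.5, 108.0 and 112.3 CPM in C-14 (log2 fold change 0.45, SE 0.17, adjusted p = 0.484, edgeR).

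Flowering genes bear on the stage of the plants, since leaves were taken at heading. No gene of that list was called by edgeR or by DESeq2. Of its 10 tested genes, 3 had an unadjusted p under 0.05 (edgeR), against 7.46% of all tested genes. MADS15 (OS07G0108900), a floral meristem identity factor, had 0.363, 0.541 and 1.53 CPM in C-13 and 4.36, 7.99 and 3.01 CPM in C-14. C-16 again spanned both lines, with 0.448, 8.20 and 2.02 CPM. On the log2 scale the fold change was -2.65 (SE 0.75, adjusted p = 0.200, edgeR), and it passed the threshold only with no filter on low counts (adjusted p = 0.0156). The florigen gene Hd3a (OS06G0157700) had a log2 fold change of -0.16 (SE 0.12, adjusted p = 0.854, edgeR).

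**Figure D4:**
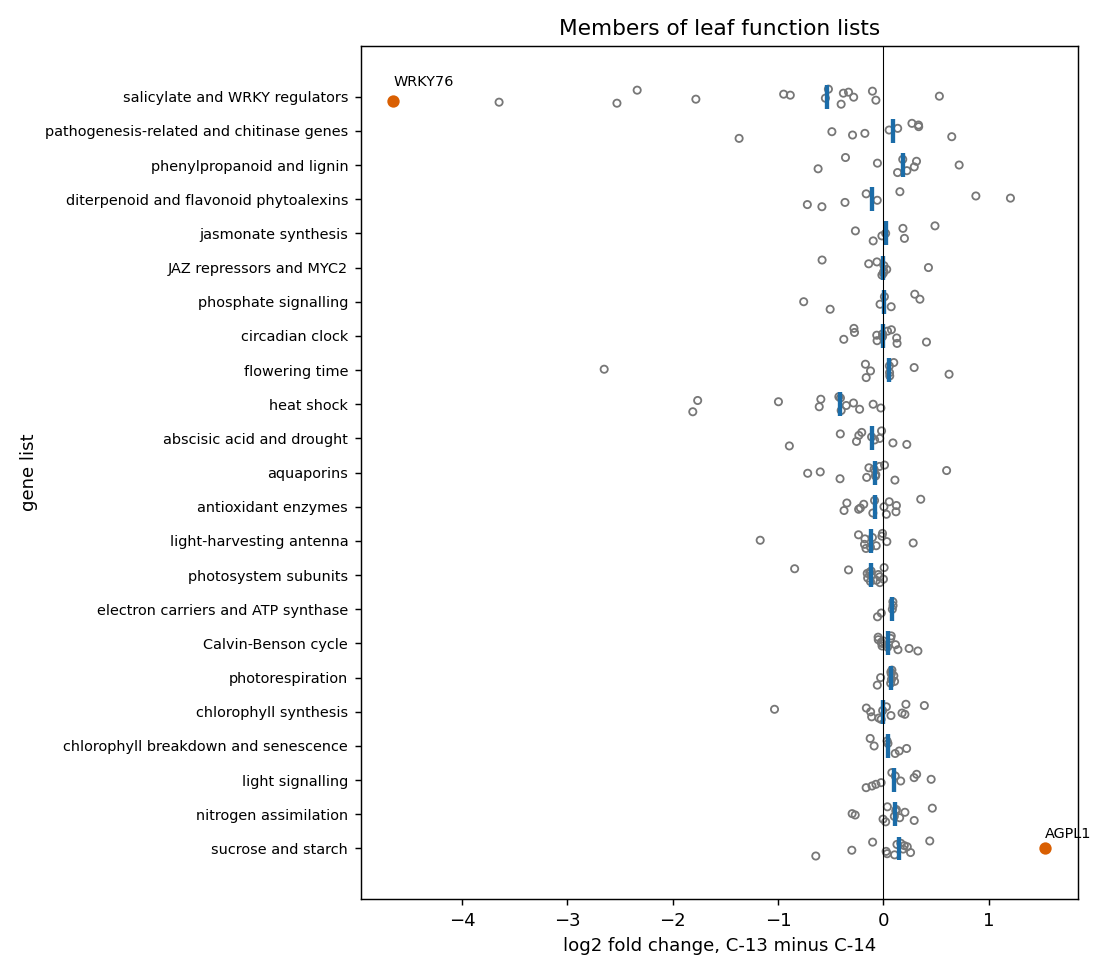
Fitted log2 fold change of C-13 minus C-14 (x axis) for each tested member of 23 leaf function lists (y axis); open circles missed the threshold, filled circles passed it, and vertical bars are list medians. WRKY76 and AGPL1 are the called members, and all 13 heat shock genes lie below 0.

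Over all 23 lists of leaf functions, 2 of 246 tested genes were called, WRKY76 and AGPL1, and 29 had an unadjusted p under 0.05. Over all tested genes these shares were 0.356% and 7.46%. The DESeq2 Wald test called 3 genes in the WRKY list, 1 in the sucrose and starch list and 0 in each of the other lists. The other 73 calls were of identifiers to which no function is given here. Among 12 circadian clock, 11 abscisic acid and drought, 12 aquaporin, 13 antioxidant and 7 phosphate signalling genes, no gene was called. Their smallest adjusted p were 0.651 for PRR59 (OS11G0157600), a pseudo-response regulator of the clock, 0.713 for SNAC2 (OS01G0884300), a stress-induced NAC factor, 0.464 for PIP1;2 (OS04G0559700), a plasma membrane aquaporin, 0.587 for the iron superoxide dismutase gene FSD (OS06G0143000) and 0.515 for PHO2 (OS05G0557700), an E2 conjugase that limits phosphate uptake (all edgeR).

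Called genes lay on every chromosome. The share of tested genes called ran from 0.0867% on chromosome 12 to 0.628% on chromosome 9. In 406 windows of 50 consecutive tested identifiers, 347 held no called gene, 53 held 1 and 6 held at least 2. The fullest window on chromosome 11, from OS11G0296800 to OS11G0429200, held 3, all higher in C-13. The fullest on chromosome 4, from OS04G0219200 to OS04G0259200, held 3, of which 2 were higher and 1 lower. A window on chromosome 1, from OS01G0343500 to OS01G0363600, was among 4 windows with 2.

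The 3 genes of the chromosome 11 window were neighbours among tested identifiers, and all were lower in C-14 than in the other edited lines and WT. Their levels were 0.195 to 1.02 CPM in C-14 and 1.87 to 5.98 CPM in C-13. They were 2.33 to 10.8 CPM in WT and 3.25 to 6.55 CPM in C-16, so C-14 was the edited line that stood apart. OE-2 also had low levels, 0.137 to 0.756 CPM, and in OE-3 the genes went apart, from 0.355 to 4.84 CPM. A neighbouring pair on chromosome 5 was called as well, with 0.878 to 30.3 CPM in C-14 and at most 1.03 CPM in any library of the other 6 lines. The strand setting of the read counting is not stated, and overlapping neighbours may hold the same reads.

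The third edited line did not side with 1 of the lines for all called genes. By distance of means on the log2 scale, C-16 was nearer to C-14 for 46 of the 75 genes and nearer to C-13 for 29. WT was nearer to C-13 for 46 and nearer to C-14 for 29. Both C-16 and WT were nearer to C-13 for 21 genes and both nearer to C-14 for 21, while for 25 WT was nearer to C-13 and C-16 to C-14, and for 8 the reverse. Of the 29 genes read at 2 CPM or more in both lines, C-16 was nearer to C-14 for 22 and WT for 16.

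The other pairings of edited lines gave fewer calls than the 75 of C-13 against C-14. C-13 against C-16 gave 51 calls (0.242%), 21 higher (0.0998%) and 30 lower (0.143%) in C-13. C-14 against C-16 gave 46 calls (0.219%), 27 higher (0.128%) and 19 lower (0.0903%) in C-14. The pairings share libraries, and the differences between the counts were not tested.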

How the data were processed

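Leaf RNA was sequenced in 21 libraries from 7 lines, 3 per line, grouped by their labels. The values are raw counts of reads, whole numbers that were not normalized, which the authors deposited as 1 table with a row per identifier. Per the submitters' processing notes, the build was IRGSP-1.0 and the tools were STAR 2.5.3a, DESeq2, Trim Galore and FastQC, whose roles and order are not stated. For the read counter, the strand setting and reads with several matches, the method is not given in the sources used here. In 56267 rows every library held 0.

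From these counts, genes were kept by filterByExpr with the line as group, libraries were scaled by TMM, and edgeR 4.0.16 (R 4.3.3) was fitted by quasi-likelihood over all 21 libraries with 14 residual degrees of freedom. Benjamini-Hochberg adjustment ran over all 21044 tested genes with a threshold of 0.05, and "called", "higher" and "lower" as counts refer to it. SE is the absolute log2 fold change over the square root of F. "Nearly absent" means at most 3 counts in each library of a line. Counting intervals cover counting error only. Distances between lines and the principal components used log2 of CPM plus 0.5. The procedure was also run on simulated counts that left out the quasi-likelihood spread of single genes. That run does not measure its error rate in these data.

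Named genes were NRP1, called list members, otherwise the member with the smallest adjusted p in a list, and at most 2 identifiers of no list each way with non-overlapping lines and at least 2 CPM. Other genes were chosen after their values were seen. Members and lists were chosen with earlier results of these data known. Symbols were paired with identifiers from general knowledge. Of 295 listed symbols, 163 occur in RefSeq's gene table (assembly ASM3414082v1), 158 of them on the chromosome the identifier carries. WRKY76, WRKY62, HSP101 and MADS15 are among the latter. NRP1, AGPL1, WRKY45 and several other named genes, among them AGPL3, Lhcb1.2, RBCS4, PIL15 and PHO2, were not checked this way. Replicates of a line differed by more than sampling noise (chi-square per degree of freedom 6.01 to 31.0). Alternatives included DESeq2 1.42.0.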

Additional observations from a re-analysis of the deposited data

How the results depend on the processing

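Of 19 alternative settings, 13 or 14 gave a value for a single named gene. Of 485 such values, 457 kept their direction and their side of the threshold. Most of these genes were not called with all libraries and kept their side by staying uncalled. Among the other values 19 lost a call, 7 gained a call and 2 changed sign. AGPL1 and WRKY76 each kept the call in 7 of 14 settings. With no filter on low counts, C-13 against C-14 gave 190 calls (49 higher and 141 lower in C-13) and C-13 against C-16 gave 113. With a mean of at least 5 CPM they gave 17 (3 higher, 14 lower) and 7, C-14 against C-16 gave 4, and 2 called genes were nearly absent from 1 line. The DESeq2 Wald test gave 173 (47 higher, 126 lower) and 91. C-14 against C-16 gave 21 with only the lines compared and 26 with only the edited lines. Of the 75 calls, 75 were shared with no filter, 69 with DESeq2, 58 with only the lines compared and 47 with only the edited lines.

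Leaving out 1 library at a time gave 36 to 65 calls (12 to 16 higher, 23 to 51 lower), 18 to 24 of them nearly absent from 1 line, with 36 to 55 of the 75 shared. It gave 26 to 43 calls for C-13 against C-16 and 22 to 35 for C-14 against C-16. Thresholds of 1 and 5 counts, added after seeing the data, put 20 and 30 genes in the nearly absent class. Across these, the log2 fold change of AtpC (OS07G0513000), 0.09 with all libraries, ran from -0.0035 without C-13 replicate 1 to 0.16, and that of Lsi1 (OS02G0745100), -0.08 with all, from -0.23 to 0.034 without C-13 replicate 3. The cause of these shifts was not tested.

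Same-numbered C-13 and C-14 libraries had correlated deviations of 0.09, 0.14 and -0.05, so the numbers were not taken to pair the samples. With the replicate block 74 genes were called, 66 of them among the 75.

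Depth limits the genes with few reads, and 3 libraries per line limit all of them. Effects of the edit and of the line as such cannot be told apart.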

Other observations

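Genes read in all 3 libraries of a single line, with at most 3 counts in every library of the other 6 lines, were few in each line. There were 4 in C-13, 3 in C-14, 1 in C-16, 2 in OE-2, 1 in OE-3, 1 in OE-4 and 0 in WT. Without regard to calls, OE-4 had 50 genes read in each of its libraries and nearly absent from WT, and 6 of the reverse kind. OE-2 had 31 and 21, and OE-3 had 47 and 42. No test was made on these counts.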
